A study of Mus musculus with 11 samples.

Results

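This report describes 10 genes of transforming growth factor beta (TGF-beta) signalling in mouse muscle stem cells: the ligands Tgfb1, Tgfb2 and Tgfb3, the receptors Tgfbr1, Tgfbr2 and Tgfbr3, the matrix gene Tgfbi, and the corepressors Ski, Skil and Tgif1. They were taken by name from the 48709 genes of the count table, and all 10 passed the filter on low counts, as did 31999 genes in all. The cells came from Tg:Pax7-nGFP mice on a C57BL/6 background, in which Pax7, the transcription factor that marks muscle stem cells, drives a nuclear green fluorescent protein. They were taken from muscles of the chest, forelimb and hindlimb. The age and sex of the animals are not given in the sources used here.

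The groups differed in what preceded fixation in 0.5% paraformaldehyde. In T0 the whole muscle was fixed for 1 h at 4°C, before any dissociation (n = 3). In T3 the cells went through a standard isolation and sorting by FACS and were then fixed for 30 min on ice (n = 4). T5 added 2 h at 37°C (4 libraries, n = 2 after libraries of the same letter, A or B, were added up). According to the treatment protocol this time was spent by the dissected muscle before the cells were isolated, whereas the series description puts it after the isolation. Fixing muscle in T0 and sorted cells in T3 and T5 differed together with the isolation, so these cannot be told apart. Nothing in the labels says that replicates came from separate animals or preparations, so p-values rest only on how far these samples lay apart, a spread that may be technical.

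TGF-beta ligands are secreted in a latent complex that the matrix holds and that integrins, proteases or thrombospondin can open. The freed ligand is bound by the receptor kinase Tgfbr2, which activates Tgfbr1, and the betaglycan encoded by Tgfbr3 presents ligand to this pair, Tgfb2 above all. Tgfbr1 then phosphorylates Smad2 and Smad3, which enter the nucleus with Smad4, and Ski, Skil and Tgif1 repress transcription at Smad-bound genes. In muscle, TGF-beta is known for holding back the differentiation and fusion of myoblasts and for promoting fibrosis.

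Of the 10 genes, 5 were higher and 2 lower in T3 than in T0, against 37.9% of all genes called in either direction, 15% higher and 22.9% lower. Tgif1, Tgfb1, Tgfb2, Tgfbi and Skil rose, by 10.3-, 6.55-, 2.67-, 1.77- and 1.72-fold, while Tgfbr3 fell to a level 4.47-fold lower and Tgfb3 to one 1.51-fold lower. Tgfbr1, Tgfbr2 and Ski were not called. Between T3 and T5 only Tgfbi was called, 2.79-fold higher, where 2.17% of all genes were called (1.28% higher and 0.888% lower). A gene was called at a Benjamini-Hochberg adjusted p under 0.05, over all genes tested, in edgeR's quasi-likelihood test.

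RefSeq's promoter table (GRCm38.p6) holds 300-base windows, from 250 bases before to 50 after a start site, for 7 of the 10 genes. Shown are those of the genes that rose in T3 and have an entry, so that their start regions can be compared. For Tgif1 the first of its 5 start sites is given. Lower case is used throughout except for CAGAC or its reverse complement GTCTG, the short motif to which Smad proteins are known to bind, which stands in capitals. The windows are Tgfb1 at chr7:25686752-25687051 (plus strand), Tgfb2 at chr1:186705940-186706239 (minus strand), Tgfbi at chr13:56609336-56609635 (plus strand) and Tgif1 at chr17:70853483-70853782 (minus strand).
Tgfb1: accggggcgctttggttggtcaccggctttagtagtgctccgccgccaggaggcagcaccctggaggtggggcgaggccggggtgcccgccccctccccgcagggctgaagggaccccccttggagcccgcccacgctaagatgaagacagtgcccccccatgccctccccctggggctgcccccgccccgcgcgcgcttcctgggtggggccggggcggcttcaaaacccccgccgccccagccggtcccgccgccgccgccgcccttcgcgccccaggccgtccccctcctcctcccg
Tgfb2: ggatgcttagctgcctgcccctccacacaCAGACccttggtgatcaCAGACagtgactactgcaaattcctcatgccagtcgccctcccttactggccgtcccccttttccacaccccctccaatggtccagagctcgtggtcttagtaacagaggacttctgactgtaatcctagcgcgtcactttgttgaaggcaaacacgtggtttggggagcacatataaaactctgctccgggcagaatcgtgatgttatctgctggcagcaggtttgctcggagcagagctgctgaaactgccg
Tgfbi: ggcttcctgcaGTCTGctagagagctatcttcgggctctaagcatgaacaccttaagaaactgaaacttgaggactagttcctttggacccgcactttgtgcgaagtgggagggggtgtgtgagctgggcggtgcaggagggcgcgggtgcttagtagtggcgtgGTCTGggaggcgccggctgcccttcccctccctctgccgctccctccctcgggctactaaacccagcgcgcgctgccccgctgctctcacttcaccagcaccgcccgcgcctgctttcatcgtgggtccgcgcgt
Tgif1: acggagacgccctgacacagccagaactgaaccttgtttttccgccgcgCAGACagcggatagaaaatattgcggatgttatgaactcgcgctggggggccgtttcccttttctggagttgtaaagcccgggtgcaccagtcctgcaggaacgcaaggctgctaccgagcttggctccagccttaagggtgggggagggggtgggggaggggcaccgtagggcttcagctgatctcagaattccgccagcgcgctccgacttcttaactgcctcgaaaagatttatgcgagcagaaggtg

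CAGAC or GTCTG was found in 7 of the 12 windows, which belong to 5 of the 7 genes, and in 49.6% of 32851 promoters of the same length. Counted from the start site, the Tgfb2 window holds it at -221 and -204, the Tgfbi window at -239 and -85, and the Tgif1 window at -201. The Tgfb1 window does not hold these letters. Searched on both strands, none of the 12 windows holds the AP-1 site TGANTCA (7.81% of all promoters), the cyclic AMP response element TGACGTCA (1.79%) or the Smad palindrome GTCTAGAC (0.213%), whose first 4 letters are those of GTCTG. These matches describe the letters of the windows and nothing about binding.

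The T0 libraries held 49078859 to 67251946 counts each, the T3 libraries 52632553 to 72638711 and the T5 libraries 61837170 to 102347035. Levels below are in CPM, the count of a gene relative to its library total, scaled by edgeR's TMM factors. The 10 markers of satellite cells, the resident muscle stem cells, had a summed level of 5290 to 7760 CPM (T0), 2970 to 3650 CPM (T3) and 2170 to 2270 CPM (T5). Pax7 itself stood at 3140 to 4440, 249 to 400 and 306 to 325 CPM and made up most of the T0 sum. Of the 10, 3 were called higher in T3 than in T0 (Sdc4, Des and Vcam1) and 4 lower, with a median log2 fold change of -0.15. In T5 against T0, 2 were called higher and 7 lower (median -1.34). Endothelial markers summed to 251 to 294, 447 to 545 and 262 to 264 CPM, with 5 of 9 called higher in T3 than in T0 and 5 of 9 lower in T5 than in T3. Fibroblast-lineage markers summed to 449 to 654, 242 to 414 and 191 to 201 CPM, mostly through Gsn (mean 414, 220 and 134 CPM) and Dpt (127, 76.4 and 36.3 CPM). These were the 2 of 9 called lower in T3 and in T5 than in T0. Col6a3 was called higher in both, and the median log2 fold change of the list was 0.50 and 0.55. Pericyte and smooth muscle markers summed to 811 to 1240, 710 to 888 and 486 to 515 CPM, with Notch3 falling from a mean of 738 to 214 CPM in T3 and 93.1 CPM in T5. Of these 8 markers, 2 were called higher in T3 than in T0 (Rgs5, and Des, which is also in the satellite cell list) and 3 lower. Myofibre markers summed to 87.9 to 115, 81.9 to 120 and 54.8 CPM, with 6 of 9 called higher and 2 lower in T3 than in T0 (median 1.5) and 4 of 9 lower in T5 than in T3. The abundant Actn3 and Atp2a1 were the 2 lower ones. Schwann cell markers summed to 43.8 to 47.3, 50 to 61.6 and 51.2 to 54.2 CPM, with 2 of 6 called higher and 1 lower in T3 than in T0. Over all genes tested, 15% were called higher and 22.9% lower in T3 against T0. The shares were 1.28% and 0.888% in T5 against T3, and 13.2% and 22.5% in T5 against T0. The marker genes named here were named after their values were seen. No marker of any list was at 0 throughout a group, and the part of other cells in the results was not tested. In such bulk samples, fewer cells of a type and less RNA per cell cannot be told apart.

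**Figure D1:**
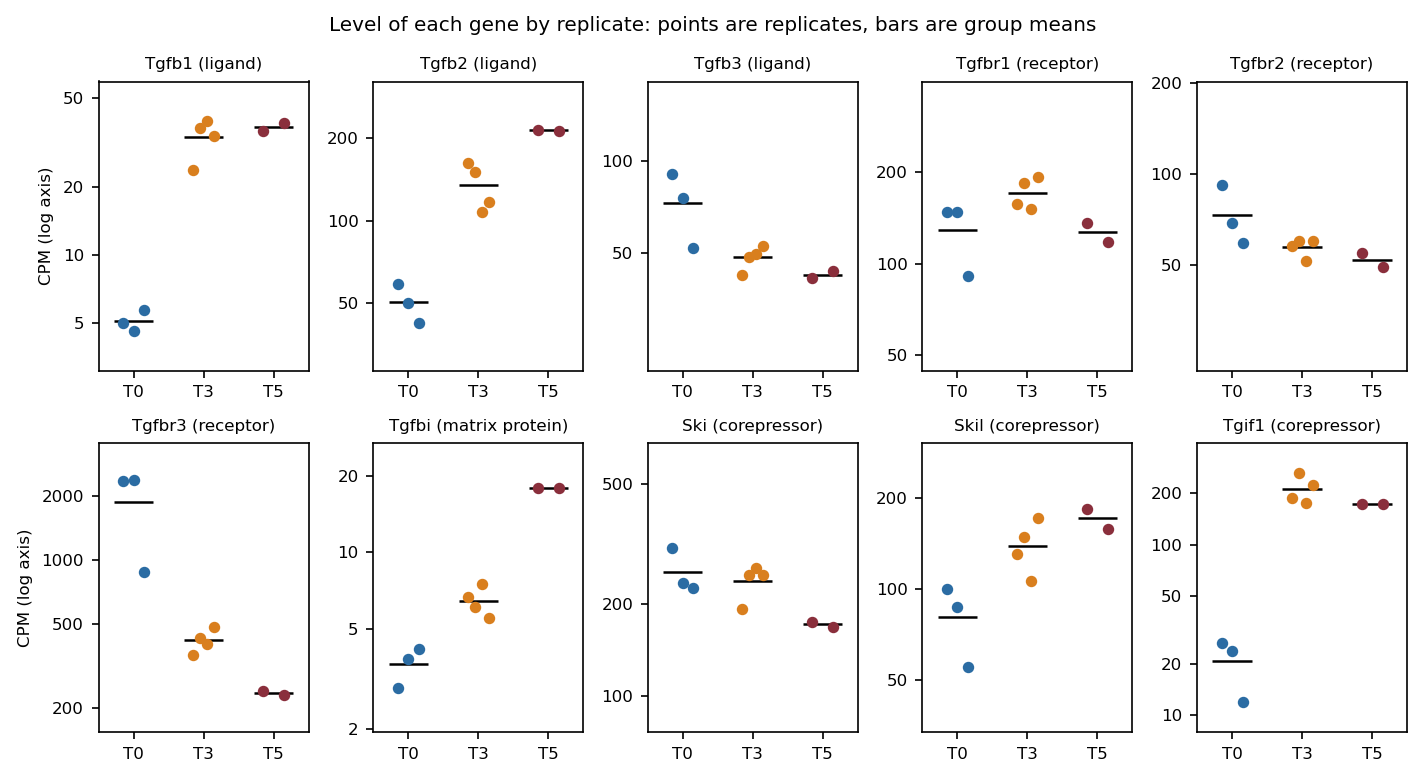
CPM (log axis) of each of the 10 genes in every replicate of T0 (3), T3 (4) and T5 (2), with bars at the group means. Tgif1 and Tgfb1 lie at 11.9 to 26.6 and 4.58 to 5.71 CPM in T0 and far above that in both other groups, Tgfbr3 lies lower in both, and Tgfbi is highest in T5.

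Among the ligands, Tgfb1 (ENSMUSG00000002603.15, GRCm38 chromosome 7, 25687002 to 25705077, plus strand) had the highest fold change. It stood at 4.98, 4.58 and 5.71 CPM in T0, at 23.8, 36.5, 39.4 and 33.8 CPM in T3, and at 35.6 and 38.5 CPM in T5. Every T3 and T5 value lay above every T0 value, while T5 lay within the range of T3. The log2 fold change was 2.71 ± 0.23 (SE) for T3 against T0 (edgeR adjusted p = 4.78e-09), the 326th highest of 31999 genes, and 2.86 ± 0.25 for T5 against T0 (adjusted p = 1.77e-08). Between T5 and T3 it was 0.15 ± 0.23 (edgeR adjusted p = 0.794). Tgfb1 is also abundant in platelets and macrophages. Platelet markers had a summed level of 5.19 to 8.76 CPM (T0), 7.49 to 10.7 CPM (T3) and 7.04 to 7.73 CPM (T5). Of these 5 markers, 3 were called higher in T3 than in T0, beside 15% of all genes. Pf4, Ppbp and Gp9, the 3 called, averaged 0.09, 0.08 and 0.06 CPM in T0 and 0.37, 0.35 and 0.32 CPM in T3. Replicates of T0 and T3 overlapped for Pf4 and Ppbp. The most abundant, Itga2b, averaged 4.93 and 6 CPM and was not called. Gp1ba averaged 1.96 and 1.35 CPM and was not called. Monocyte and macrophage markers summed to 23 to 48.1, 34.2 to 52.4 and 37.4 to 41.2 CPM. Of these 9, 3 were called higher in T3 than in T0. Their part in the rise of Tgfb1 was not tested.

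Tgfb2 (ENSMUSG00000039239.14, chromosome 1, 186622792 to 186705989, minus strand) encodes the ligand that depends most on betaglycan. Its level was 58.6, 50.2 and 42.4 CPM in T0, 162, 150.8, 107.8 and 117.1 CPM in T3, and 214.5 and 212.9 CPM in T5. The groups did not overlap and stood in the order T0, T3, T5. T3 exceeded T0 by 1.42 ± 0.22 on the log2 scale (edgeR adjusted p = 1.26e-05), and T5 exceeded T0 by 2.08 ± 0.25, or 4.24-fold (edgeR adjusted p = 9.91e-07). T5 against T3 gave 0.67 ± 0.23 and was not called (edgeR adjusted p = 0.168). This difference was called without T0 replicate 3 (adjusted p = 0.0308), with the 4 T5 libraries as 4 replicates (0.0305) and in a fit of T3 and T5 alone (0.0241). The antisense gene Gm29491, which shares 124 exonic bases with Tgfb2, rose with it by 1.87 ± 0.23 in T3. Its count was 2.18 to 4.88% of that of Tgfb2.

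Tgfb3 (ENSMUSG00000021253.6, chromosome 12, 86056745 to 86079041, minus strand) went the other way. It stood at 90.6, 75.7 and 51.7 CPM in T0, at 42.3, 48.2, 49.7 and 52.7 CPM in T3, and at 41.3 and 43.4 CPM in T5. T0 replicate 3 overlapped T3, and the other T0 values lay above all T3 and T5 values. The change was -0.59 ± 0.21 for T3 against T0 (edgeR adjusted p = 0.0256), -0.78 ± 0.25 for T5 against T0 (edgeR adjusted p = 0.0184) and -0.19 ± 0.24 for T5 against T3 (edgeR adjusted p = 0.746). Both calls depended on single replicates. The T3 call was lost under 10 alternatives, among them upper quartile scaling (adjusted p = 0.101) and the omission of any of 6 replicates: 1 or 2 of T0 (0.149 or 0.0886), 1 or 2 of T3 (0.0822 or 0.0569), and A or B of T5 (0.065 or 0.0504). The T5 call was lost on omission of 1 or 2 of T0 (0.0689 or 0.0544) or of A or B of T5 (0.191 or 0.128). Tgfb3 also overlaps in part Ttll5, a tubulin-modifying enzyme gene on the other strand, with 0 exonic bases shared. Gm37804 and Gm48008, on that strand too, share 163 and 257 exonic bases with Tgfb3. The count of Gm37804 was 5.54 to 8.25% of that of Tgfb3. The count of Ttll5 relative to that of Tgfb3 was 231 to 254% (T0), 189 to 202% (T3) and 161 to 182% (T5), and Ttll5 fell by 0.89 ± 0.20 on the log2 scale in T3. The level of Tgfb3 is therefore uncertain.

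Per kb of exon, Tgfb3 made up 68.4% ± 3.47 (SD, n = 3) of the summed ligand CPM in T0, 32.5% ± 4.38 (n = 4) in T3 and 22% ± 0.54 (n = 2) in T5. The share of Tgfb2 was 28.2% ± 2.28, 52.4% ± 7.52 and 65.0% ± 1.09, and that of Tgfb1 was 3.41% ± 1.19, 15.1% ± 3.53 and 12.9% ± 0.55. For each of the 3 ligands, T0 shares did not overlap those of T3 or T5. Counted by the whole gene span instead of exons, Tgfb3 remained the leading ligand in T3 at 38.5%, with Tgfb1 at 32.6% and Tgfb2 at 28.9%, so the leading ligand of T3 depended on the length used. In T5 Tgfb2 led by either length, at 39.4% by span. The shares are a description with no test.

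**Figure D2:**
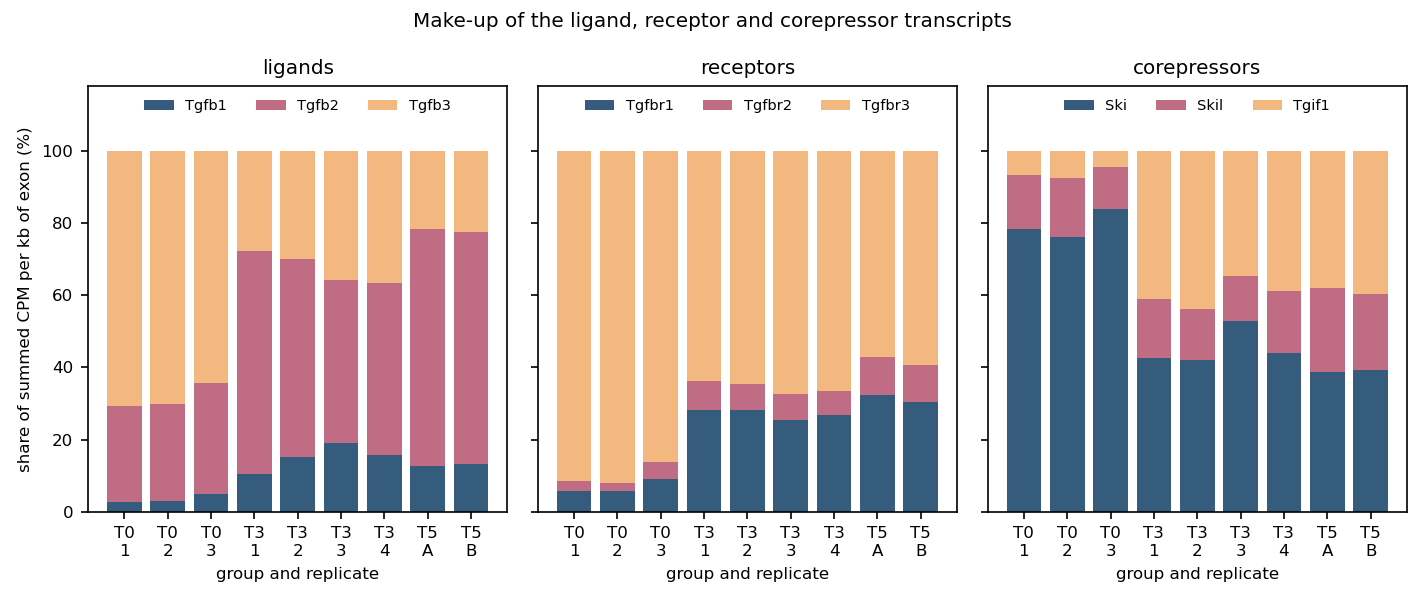
Stacked bars give the share (%) of each gene in the summed CPM per kb of exon of the ligands, receptors and corepressors, for every replicate. Tgfb3, Tgfbr3 and Ski hold most of their bars in T0, with 64.4 to 70.7%, 86.4 to 92.1% and 76.2 to 83.9%, and less in T3 and T5.

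Of the receptors, Tgfbr3 (ENSMUSG00000029287.14, chromosome 5, 107106570 to 107289629, minus strand) was the only one called. It stood at 2352, 2354 and 878.5 CPM in T0, at 356.7, 426, 399.7 and 483.7 CPM in T3, and at 240.4 and 231 CPM in T5. The groups did not overlap, but T0 replicate 3 lay far below the other T0 replicates. T3 against T0 gave -2.16 ± 0.27 on the log2 scale (edgeR adjusted p = 1.00e-06), and -2.50 without T0 replicate 3. T5 against T0 gave -2.98 ± 0.37, a level 7.90-fold lower (edgeR adjusted p = 1.53e-06). T5 against T3 gave -0.82 ± 0.32 and was not called (edgeR adjusted p = 0.242). It was called without T0 replicate 3 (0.0114), with the 4 T5 libraries as 4 replicates (0.0426) and with T3 and T5 alone (0.0067). Ranked by CPM per kb of exon among 31821 genes, Tgfbr3 was 174th in T0, 708th in T3 and 1129th in T5.

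Tgfbr3 spans 183060 bp, and 3 annotated features inside it, Gm42900, Gm43423 and Gm8145, overlap none of its exons. Their levels give a view of that region apart from the Tgfbr3 exons. Gm42900 fell by 2.73 ± 0.31, Gm43423 by 3.19 ± 0.31 and Gm8145 by 2.72 ± 0.30 on the log2 scale from T0 to T3 (edgeR adjusted p = 2.49e-07, 2.50e-08 and 1.61e-07). The count of Gm43423 relative to that of Tgfbr3 was 0.846 to 1.06% (T0), 0.263 to 0.613% (T3) and 0.304 to 0.648% (T5), so T0 lay apart. That of Gm42900 was 0.722 to 1.08%, 0.411 to 0.856% and 0.493 to 1.01% and overlapped between all groups. That of Gm8145 was 0.556 to 0.741%, 0.278 to 0.528% and 0.441 to 0.577%, with T0 apart from T3 but not from T5. Gm43422, which shares 297 exonic bases with Tgfbr3, stood at 2.43 to 2.59%, 3.15 to 4.96% and 3.02 to 4.15%.

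Tgfbr1 (ENSMUSG00000007613.15, chromosome 4, 47353222 to 47414931, plus strand), the receptor kinase that phosphorylates Smads, stood at 148.6, 148 and 91.4 CPM in T0, at 157.1, 184.7, 151 and 193.6 CPM in T3, and at 136.1 and 118.1 CPM in T5. All T3 values lay above all T0 values and both T5 sums, by a small margin. The 4 T5 libraries ran from 105.4 to 168.2 CPM before they were summed and so overlapped T3. T3 against T0 gave 0.41 ± 0.22 (edgeR adjusted p = 0.154), T5 against T3 gave -0.43 ± 0.25 (0.477) and T5 against T0 gave -0.03 ± 0.26 (0.944). With upper quartile scaling the first became 0.74 and was called (0.000687). That scaling moved the median over all genes from 0.05 to 0.32 on the log2 scale for T3 against T0, and from 0.18 to 0.51 for T5 against T0.

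Tgfbr2 (ENSMUSG00000032440.12, chromosome 9, 116084293 to 116175360, minus strand), the kinase that binds the ligand, stood at 91.7, 68.7 and 59.2 CPM in T0, at 58, 59.9, 51.7 and 60.1 CPM in T3, and at 54.8 and 49.4 CPM in T5. T0 and T3 overlapped, and T5 lay below T0. The differences were -0.35 ± 0.20 for T3 against T0 (edgeR adjusted p = 0.188) and -0.49 ± 0.24 for T5 against T0 (edgeR adjusted p = 0.12). Without T0 replicate 3 both were called, at -0.48 (0.0135) and -0.62 (0.0077). With upper quartile scaling they were -0.03 and -0.12, and neither was called. The share of Tgfbr3 in the receptor CPM per kb of exon was 89.9% ± 3.11 in T0, 65.6% ± 1.77 in T3 and 58.3% ± 1.59 in T5, and Tgfbr1 held 6.86% ± 1.85, 27.1% ± 1.22 and 31.4% ± 1.4. By gene span, Tgfbr3 led in T0 at 76.2%, whereas Tgfbr1 led in T3 at 48.9% and in T5 at 52.5%.

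Tgfbi (ENSMUSG00000035493.9, chromosome 13, 56609523 to 56639562, plus strand) encodes a secreted matrix protein named for its induction by TGF-beta. It was low in T0, at 2.92, 3.81 and 4.17 CPM, and stood at 6.67, 6.11, 7.54 and 5.49 CPM in T3. In T5 both replicates were at 18.0 CPM, and the 4 libraries behind them ran from 15.3 to 21.1 CPM, so the spread between the sums is narrower than that between libraries. The 3 groups did not overlap. The rise was 0.82 ± 0.21 for T3 against T0 (edgeR adjusted p = 0.00294) and 1.48 ± 0.22 for T5 against T3 (edgeR adjusted p = 0.000292), the 309th highest of all genes in that comparison. T5 against T0 gave 2.30 ± 0.24 (edgeR adjusted p = 2.30e-07). Under each alternative run the T5 against T3 call held, with adjusted p up to 0.011 when a replicate was omitted. Fibroblasts and macrophages also express Tgfbi. The sum of the fibroblast markers fell along the groups through Gsn and Dpt, whereas the median of the list was above 0 in T3 and T5 against T0 and -0.22 in T5 against T3, and Col6a3 rose by 1.10 ± 0.38 in T5 against T0. Of the macrophage markers, 3 of 9 were called higher in T5 than in T0 (median 0.38), beside 13.2% of all genes. In T5 against T3, where Tgfbi was called, 0 of these 9 were called (median -0.20). Col6a3 gave 0.15 ± 0.36 there and was not called. Their part in the rise of Tgfbi was not tested.

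**Figure D3:**
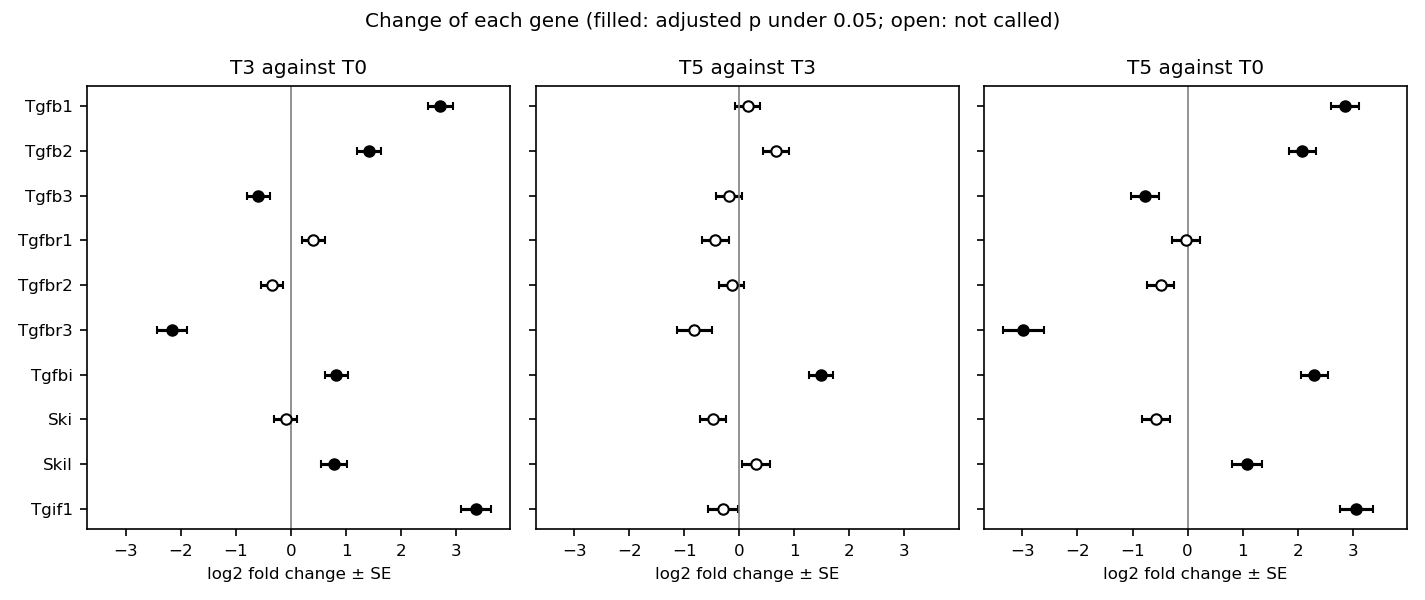
Log2 fold change ± SE of each gene for the 3 comparisons, with filled points where edgeR's adjusted p was under 0.05. In T3 against T0 there are 5 filled points to the right and 2 to the left of 0, and in T5 against T3 only Tgfbi is filled.

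Of the corepressors, Tgif1 and Skil rose and Ski was not called. Tgif1 (ENSMUSG00000047407.17, chromosome 17, 70844205 to 70853546, minus strand), a homeodomain protein that recruits histone deacetylases to Smads, stood at 26.6, 23.7 and 11.9 CPM in T0, at 187.2, 262.9, 174.8 and 223.5 CPM in T3, and at 173.5 and 172.6 CPM in T5. T0 lay far below both other groups. T3 exceeded T0 by 3.36 ± 0.28 on the log2 scale (edgeR adjusted p = 3.78e-09), the 157th highest of all genes and the largest change among the 10, and T5 exceeded T0 by 3.07 ± 0.30, or 8.37-fold (edgeR adjusted p = 7.12e-08). T5 against T3 gave -0.29 ± 0.28 (edgeR adjusted p = 0.681).

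Skil (ENSMUSG00000027660.16, chromosome 3, 31095058 to 31122577, plus strand) encodes SnoN, a Smad corepressor related to Ski. Its level was 100.5, 87.4 and 55.4 CPM in T0, 130.5, 148.2, 106.7 and 171.8 CPM in T3, and 184.5 and 158.3 CPM in T5. Both isolated groups lay above T0 and overlapped each other. It rose by 0.78 ± 0.23 from T0 to T3 (edgeR adjusted p = 0.00911) and by 1.08 ± 0.27, or 2.11-fold, from T0 to T5 (edgeR adjusted p = 0.00259). T5 against T3 gave 0.30 ± 0.25 (edgeR adjusted p = 0.648). Within T5 replicate A its libraries stood at 236 and 134 CPM.

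Ski (ENSMUSG00000029050.15, chromosome 4, 155154075 to 155222592, minus strand) stood at 305.6, 235.1 and 226.5 CPM in T0, at 192.3, 249.4, 263.7 and 249.9 CPM in T3, and at 175.1 and 168.4 CPM in T5. T0 and T3 overlapped, and the summed T5 replicates lay below all of them. The 4 libraries behind the T5 sums ran from 141.8 to 211 CPM, which reached into the range of T3. T3 against T0 gave -0.10 ± 0.20 (edgeR adjusted p = 0.755), with no stable sign, since it was 0.20 with upper quartile scaling and 0.046 without T0 replicate 1. T5 against T3 gave -0.48 ± 0.24 (edgeR adjusted p = 0.409) and T5 against T0 gave -0.57 ± 0.25 (0.078). The latter was called without T0 replicate 3 (0.0117), with the 4 T5 libraries as 4 replicates (0.0173) and by DESeq2 (0.0292). With upper quartile scaling it was -0.22 and was not called.

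Per kb of exon, Ski held 79.5% ± 3.96 of the corepressor CPM in T0, 45.3% ± 5.16 in T3 and 38.9% ± 0.33 in T5, while Tgif1 held 6.22% ± 1.68, 39.6% ± 3.80 and 38.8% ± 1.27. Skil held 14.3% ± 2.28, 15.1% ± 2.27 and 22.3% ± 1.60. By gene span Tgif1 held 24.3% in T0, 72.5% in T3 and 68.0% in T5. The direction of its gain was the same by either length. Skil held 32.9%, 16.2% and 22.8% by span, a fall from T0 that its exon shares do not show. Ski held 42.8%, 11.3% and 9.2% by span, so the leading corepressor of T3 depended on the length used.

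In T5 against T0, 5 of the 10 genes were called higher and 2 lower, beside 35.7% of all genes called (13.2% higher, 22.5% lower). Replicates did not overlap for 7 of the 10 genes in T3 against T0, 6 in T5 against T3 and 9 in T5 against T0, beside 38.3%, 38.2% and 59.3% of all genes. The median log2 fold change of the 10 was 0.59, -0.16 and 0.53, beside 0.05, 0.05 and 0.18 over all genes. The number of calls in T5 against T3 moved with single replicates: 695 genes were called, 2503 without T0 replicate 3, 1439 without T0 replicate 1, 457 without T3 replicate 4, 224 without T5 replicate A and 184 without T5 replicate B. All comparisons share groups, so their values stand side by side and are not independent.

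A list of 53 other genes of the pathway was read in the same fit. In T3 against T0, 25 were called higher and 7 lower, beside 15% and 22.9% of all genes, with a median log2 fold change of 0.44. In T5 against T3, 1 was called in each direction (median -0.16), beside 1.28% higher and 0.888% lower of all genes. In T5 against T0, 22 were higher and 9 lower (median 0.48), beside 13.2% and 22.5%.

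Among 14 genes listed under ligand latency and activation, 5 rose and 4 fell in T3 (median 0.31), beside 15% and 22.9% of all genes. Thbs1, thrombospondin, an activator of latent ligand, rose from 8.21 ± 1.75 to 161 ± 59.9 CPM (SD), by 4.30 ± 0.30 on the log2 scale (edgeR adjusted p = 3.15e-10). Lrrc32, which tethers latent ligand to the cell surface, went from 1.27 to 8.42 CPM (2.72 ± 0.29), and Furin, the protease that processes the ligand precursors, from 40.9 to 119 CPM (1.54 ± 0.24). Lrrc32 is also known from platelets and endothelium, whose markers are given above. The members that fell were named after their values were seen: the fibrillin Fbn1 (-1.35 ± 0.21), the latent-ligand binding proteins Ltbp4 (-0.81 ± 0.22) and Ltbp3 (-0.62 ± 0.20), and the integrin subunit Itgb8 (-0.56 ± 0.20). Ltbp2 was the only member called in T5 against T3, from 8.63 to 18.5 CPM (1.10 ± 0.25, edgeR adjusted p = 0.0165). That call was lost with upper quartile scaling (0.0778), without T3 replicate 2 (0.0536) or 4 (0.063) and without T5 replicate A (0.306) or B (0.133). In T5 against T0, 6 rose and 2 fell, beside 13.2% and 22.5% of all genes, and Thbs1 (4.60 ± 0.32), Itgav, the alpha-v integrin subunit (1.93 ± 0.28), and Ltbp2 (1.59 ± 0.27) had the smallest p.

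Of 8 co-receptors and receptor partners, 4 rose in T3 (median 0.55), beside 15% of all genes. edgeR and DESeq2 called none lower, and 1 was lower at edgeR's unadjusted p under 0.05. Bambi, a decoy receptor, went from 1.36 to 4.78 CPM (1.82 ± 0.24, edgeR adjusted p = 1.97e-06). Strap, which binds the receptors and Smad7, rose by 1.58 ± 0.24, and Fkbp1a, which holds Tgfbr1 inactive, by 1.36 ± 0.22. In T5 against T0, 3 rose and 3 fell (13.2% and 22.5% of all genes), among them Acvrl1, a receptor kinase best known in endothelium (-1.37 ± 0.27), Bambi (1.33 ± 0.27) and Strap (1.31 ± 0.27).

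Of 14 Smads and their regulators, 7 rose and 1 fell in T3 (median 0.49), beside 15% and 22.9% of all genes. Smad3, a receptor-activated Smad, went from 263 ± 91.4 CPM in T0 to 826 ± 79.5 in T3 and back to 278 ± 20.3 in T5. It rose by 1.65 ± 0.25 from T0 to T3 (edgeR adjusted p = 8.78e-06) and fell by 1.57 ± 0.29 from T3 to T5 (edgeR adjusted p = 0.00259). The latter call was lost without T5 replicate A (0.113) or B (0.0698). T5 against T0 gave 0.08 ± 0.28 (edgeR adjusted p = 0.844). Smad2, which the receptor also activates, averaged 92.1 CPM in T0, 100 in T3 and 87.4 in T5 and was not called in any comparison. The feedback inhibitors Smad7 and Pmepa1 went from 8.51 to 23.8 CPM (1.48 ± 0.20) and from 325 to 910 CPM (1.48 ± 0.27). In T5 against T0, 4 rose and 1 fell, beside 13.2% and 22.5% of all genes, while DESeq2 called 2 higher and 1 lower. Smad7 rose by 1.68 ± 0.23 and Pmepa1 by 1.30 ± 0.30. Sin3a, a corepressor scaffold, fell by 0.90 ± 0.26, a call lost without T5 replicate A (0.146) or B (0.0716).

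Of 17 known target genes, 9 rose and 2 fell in T3 (median 1.2), beside 15% and 22.9% of all genes. Ccn2, the connective tissue growth factor, went from 10.3 ± 2.46 to 186 ± 45.8 CPM (4.18 ± 0.27, edgeR adjusted p = 1.23e-10). Junb, an AP-1 subunit, went from 5.63 to 132 CPM (4.56 ± 0.31), and Lox, the enzyme that crosslinks collagen, from 2.10 to 32.1 CPM (3.93 ± 0.27). These genes also respond to other stimuli. Snai2 and Acta2 fell, by 1.43 ± 0.23 and 0.92 ± 0.25, and were named after their values were seen. In T5 against T3 edgeR called none of the 17. At an unadjusted p under 0.05, 4 were higher and 1 lower, and DESeq2 called 1 lower. In T5 against T0, 9 rose and 3 fell (13.2% and 22.5% of all genes), with Ccn2 at 4.29 ± 0.28, Junb at 4.23 ± 0.32 and Ccn1, a matrix protein related to Ccn2, at 3.13 ± 0.26. Thbs1, Furin, Itgav, Ltbp2, Ltbp3, Fbn1, Acvrl1, Sin3a, Ccn2, Junb and Lox overlap another annotated gene, and their counts are uncertain.

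**Figure D4:**
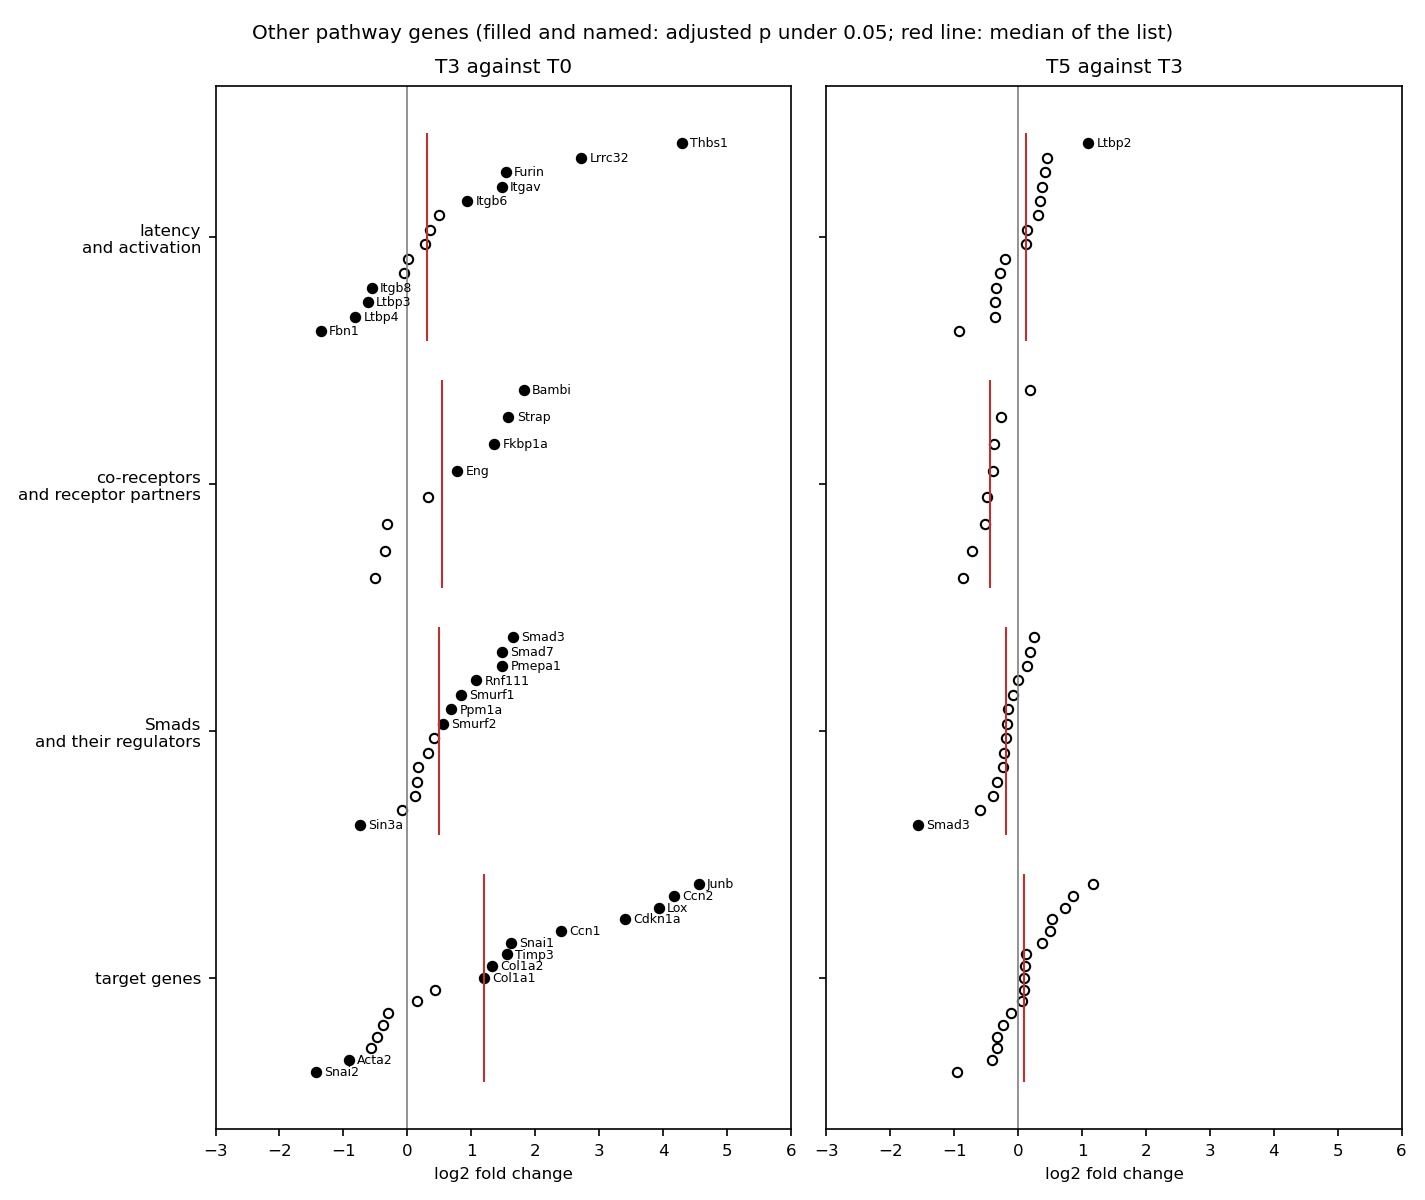
Log2 fold change of the 53 other pathway genes by role in T3 against T0 and in T5 against T3, with called genes filled and named and a red line at each median. The called genes lie mainly to the right in T3 against T0 (25 higher, 7 lower), and only Ltbp2 and Smad3 are filled in T5 against T3.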

How the data were processed

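RNA from sorted, fixed muscle stem cells was sequenced as 65-bp single-end reads from directional libraries, per the labels' protocols. The authors deposited 1 table of raw read counts for 48709 genes in 11 libraries, every column of which was used. STAR 2.5.0a, featureCounts 1.4.6-p3, R 3.3.1, DESeq2 1.12.3 and the build GRCm38 stand in the submitters' processing notes. The annotation release and strand setting are not given in the sources used here. Tsix, on the strand opposite Xist, had 1.004 to 1.014 times its count, so both strands appear to be counted.

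IDs were looked up in GENCODE vM21 without their version suffix, and 360 had no entry. Columns took their group from their names. Replicate numbers are column numbers. T5 libraries of the same letter were summed, since the titles do not tell whether they share cells. Library pairs within a group differed by a chi-square of at least 12.82 per gene, so none was a duplicate. That least value was between columns T5A6 and T5B5, of different letters. Pairs of the same letter stood at 74 and 78.68, and the remaining T5 pairs at 59.86 to 110.7. The T0 pairs lay furthest apart, at 124.7 to 338, and the T3 pairs stood at 38.95 to 110.3. Counts were tested with edgeR 4.0.16 (R 4.3.3): TMM, filterByExpr, 3 groups in 1 quasi-likelihood fit, two-sided F test, Benjamini-Hochberg over 31999 genes. The SE is the log2 fold change over the root of F. The script was tested on simulated counts.

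The 10 genes and all lists were chosen with earlier results of these data known. The list of target genes held 1 more gene, which is not reported here. Named are the 10 genes, up to 3 called genes with the smallest p per pathway list and comparison, and, for Tgfb2, Tgfbr3 and Ski (the highest mean CPM in their role), the 5 genes of highest Pearson correlation. Alternatives were upper quartile and DESeq2 size factors, DESeq2 1.42.0, no filter, 4 T5 replicates, fits of 2 groups, a replicate block, omission of each replicate and gene span as length. For the named pathway genes they were added after seeing the data.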

Additional observations from a re-analysis of the deposited data

How the results depend on the processing

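Over 460 alternative values of the 10 genes (30 gene and comparison pairs), 426 kept their direction and side of the threshold, 14 lost and 13 gained a call, and 7 changed sign. Ski in T3 against T0 was 0.20 with upper quartile scaling and -0.18 to 0.046 with 1 replicate omitted. Tgfbr1 in T5 against T0 was 0.35 with upper quartile scaling, 0.20 with T0 and T5 alone and -0.22 to 0.082 with 1 replicate omitted. T5 against T3 called 695 genes, and 1213 without the filter, 2122 with 4 T5 replicates, 2993 with T3 and T5 alone and 184 to 2503 with 1 replicate omitted. It called 1 of the 10 genes, 3 with 4 T5 replicates, 3 with T3 and T5 alone and 1 to 3 with 1 replicate omitted. Of the 53 other pathway genes it called 2, and 1 with upper quartile scaling, 5 without the filter, 9 with 4 T5 replicates, 11 with T3 and T5 alone, 6 by DESeq2 and 0 to 8 with 1 replicate omitted. T5 against T0 called 11413 genes, and 7392 to 17556 with 1 replicate omitted (17556 without T0 replicate 3, 7511 without T5 replicate A, 7392 without T5 replicate B). T3 against T0 called 12139 genes, and 10538 (without T0 replicate 2) to 15955 (without T0 replicate 3) with 1 replicate omitted. The cause of these shifts was not tested. Upper quartile scaling moved the share of lower calls from 60.4 to 44.75% in T3 against T0 and from 62.95 to 44.06% in T5 against T0, and DESeq2 moved it from 40.86 to 67.32% in T5 against T3.

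T0 and T3 share only column numbers: deviations of same-numbered replicates correlated at -0.226, 0.374 and 0.307, and T0 replicate 1 correlated best with T3 replicate 4 (0.470). With the replicate block, T3 against T0 called 10223 genes in place of 12139, 28 pathway genes in place of 32, and 6 of the 10 genes in place of 7, Tgfb3 being the one lost (edgeR adjusted p = 0.108). T5 has letters and no numbers, so it had no block.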

Other observations

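The genes whose log2 CPM followed the leading ligand, receptor and corepressor most closely were read over the 9 replicates, among 2386 genes for Tgfb2 and Tgfbr3 and 2385 for Ski whose mean was at least 4 on that scale and that no other gene overlaps. Also left out were IDs without annotation and symbols of predicted genes, of pseudogenes or beginning with Rpl or Rps. The points share libraries and depth, so the coefficients are a description with no test. Closest to Tgfb2 were Aebp1 (Pearson r = 0.990), Jcad (0.979), Nars (0.973), Zfand2a (0.969) and Hsp90aa1 (0.966). Aebp1, a matrix-associated protein, averaged 6.14 CPM in T0, 27.7 in T3 and 48.6 in T5, and the chaperone gene Hsp90aa1 averaged 24.3, 186 and 408 CPM. Both stood in the same order of groups as Tgfb2, which their choice by correlation over the same replicates largely sets.

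Closest to Tgfbr3 were Mecr (r = 0.995), Parp6 (0.995), Snx24 (0.994), Phka1 (0.992) and Nae1 (0.992). Mecr, an enzyme of mitochondrial fatty acid synthesis, averaged 37.8 CPM in T0, 15 in T3 and 10.8 in T5, and the sorting nexin Snx24 averaged 127, 48.4 and 37.5 CPM. These levels run from T0 down to T5, as those of Tgfbr3 do, which the choice by correlation also largely sets. Closest to Ski were Pfkfb4 (r = 0.949), H6pd (0.945), Edf1 (0.944), Lamb2 (0.942) and Mfge8 (0.933). Lamb2, a laminin chain of the basal lamina, averaged 92.9 CPM in T0, 80.4 in T3 and 50.4 in T5, and H6pd, an enzyme of the pentose phosphate route in the endoplasmic reticulum, 103 CPM, 90.1 CPM and 46.9 CPM.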
